A study of Mus musculus with 6 samples.

Results

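Semaphorins, plexins and neuropilins form one ligand and receptor family of axon guidance. The genes described here were all rows of the deposited expression table whose symbol names a semaphorin of classes 3 to 7, a plexin or a neuropilin, with 1 semaphorin left out. This gave 30 of the 24841 genes listed: 19 semaphorins, 9 plexins and 2 neuropilins. They were followed by class of nucleus and by genotype through 47980 of the 48834 nuclei in the table, those kept after doublets were left out.

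The nuclei came from frozen striatum, with 3 libraries from wild-type mice and 3 from Celsr3 heterozygotes, labelled as biological replicates. Celsr3 encodes a seven-pass cadherin that acts in axon guidance itself. Library construction used 10x Genomics 3′ reagents (v3.1), and the libraries shared a sequencing lane. The labels name no age, sex or strain, do not describe the Celsr3 allele and do not say whether a replicate is 1 animal or a pool. The comparisons ask where these genes are expressed among striatal cells and whether they differ between the genotypes.

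Semaphorins are the ligands. Those of class 3 are secreted, those of classes 4 to 6 span the membrane and Sema7a is held by a lipid anchor. Plexins are the receptors: their cytoplasmic part acts on small GTPases of the Ras and Rap group and so steers the cytoskeleton. Most class 3 semaphorins need a neuropilin, Nrp1 or Nrp2, to reach an A-type plexin, whereas Sema3e can bind Plxnd1 directly. The neuropilins also bind vascular endothelial growth factor, and in the striatum Sema3e and Plxnd1 are known for shaping the inputs to direct-pathway neurons.

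The unit throughout is the mean value per nucleus, where a value is a depth-corrected molecule count of a gene in a nucleus, rounded to a whole number before deposit. It compares classes and libraries within a gene, not genes with each other. Before doublets were left out the wild-type libraries held 7735, 7890 and 8081 nuclei with medians of 2456, 2917.5 and 2843 genes per nucleus, and the heterozygous ones 7890, 8363 and 8875 nuclei with medians of 2898.5, 3011 and 2859. Of the distinct barcodes, 0.564% occurred in more than 1 library. Classes carry the suffix "-like" because they were rebuilt from marker genes, and 87.6% of the kept nuclei fell into 1 of 20 such classes. Clusters that the markers did not name are given by number with their leading genes. The medium spiny neurons (MSN) of the direct and the indirect pathway are called D1-like (8511 nuclei) and D2-like (7070 nuclei) below. They had 7 of 7 and 6 of 7 of their markers over 2-fold above the other nuclei. Some clusters were spread unevenly: heterozygous replicate 2 gave 990 of the 2370 nuclei of cluster 6 (led by Baiap3 and Zim1), and heterozygous replicate 1 gave 1507 of the 3925 glutamatergic neuron-like nuclei. Celsr3 itself stood in the heterozygous libraries at 69.0% of the wild-type mean over all nuclei, at 57.0% in D1-like and at 61.5% in D2-like nuclei. Its groups did not overlap in any of the 3 populations, and limma's adjusted p over all genes was 0.455, 0.138 and 0.28. The log2 changes were -0.46 ± 0.14, -0.75 ± 0.13 and -0.64 ± 0.16 (SE), with ranges over the alternatives tried of -0.61 to -0.23, -0.82 to -0.45 and -0.74 to -0.35. The smallest change came with 0.1 added to the level in place of 0.01 in all 3 populations.

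In nuclei with few detected genes some genes were above 0 in nearly every nucleus, which bears on the levels by class. Sema6d was above 0 in 99.4% of the 6873 nuclei with under 1800 genes and in 76.4% of the 34964 nuclei with 2000 or more. In microglia-like nuclei, whose median was 1916 genes, genes of spiny neurons were above 0 as well: Rgs9, a marker of medium spiny neurons, in 100% of the shallower nuclei (up to the class's median of genes) and 60.6% of the deeper ones, and Pde10a, another, in 100% and 99.7%. In microglia-like nuclei of 2000 or more genes Pde10a still averaged 3.11 ± 0.274 (SD, n = 6). A value above 0 in a class of few genes per nucleus therefore does not by itself show that the class expresses the gene. Among the members, 3 were above 0 in most of the shallower nuclei of a class and, by at least 10 percentage points, in fewer of its deeper nuclei: Sema6d and Plxna4 in 5 of the 23 classes each and Plxna2 in 2.

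Levels by class are described without a test, because the classes come from clustering the same nuclei, although the family genes were kept out of the genes used to cluster. Among the 23 classes and clusters with 10 or more nuclei in every library, the committed oligodendrocyte precursor-like nuclei held the highest level of more family genes than any other. These 413 nuclei carry the markers of the stage between oligodendrocyte precursors (OPC) and oligodendrocytes, with 7 of 7 markers such as Bmp4, Enpp6 and Gpr17 over 2-fold. Among the 28 family genes with a mean of at least 0.02 in all nuclei, 7 were highest in this class, where 4.88% of all genes past the same limit were. For 4 of them the level was at least 2-fold above the second class, where 1.12% of all genes met that rule. The 4 were Sema4d, Sema5a, Sema6a and Plxnb3, and Sema3d, Sema4a and Sema4c made up the rest. These nuclei held medians of 2302 to 2573 genes per library, against 1919 to 2299 in OPC-like and 1785 to 2044 in oligodendrocyte-like nuclei. The part of depth in these levels was not tested.

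**Figure D1:**
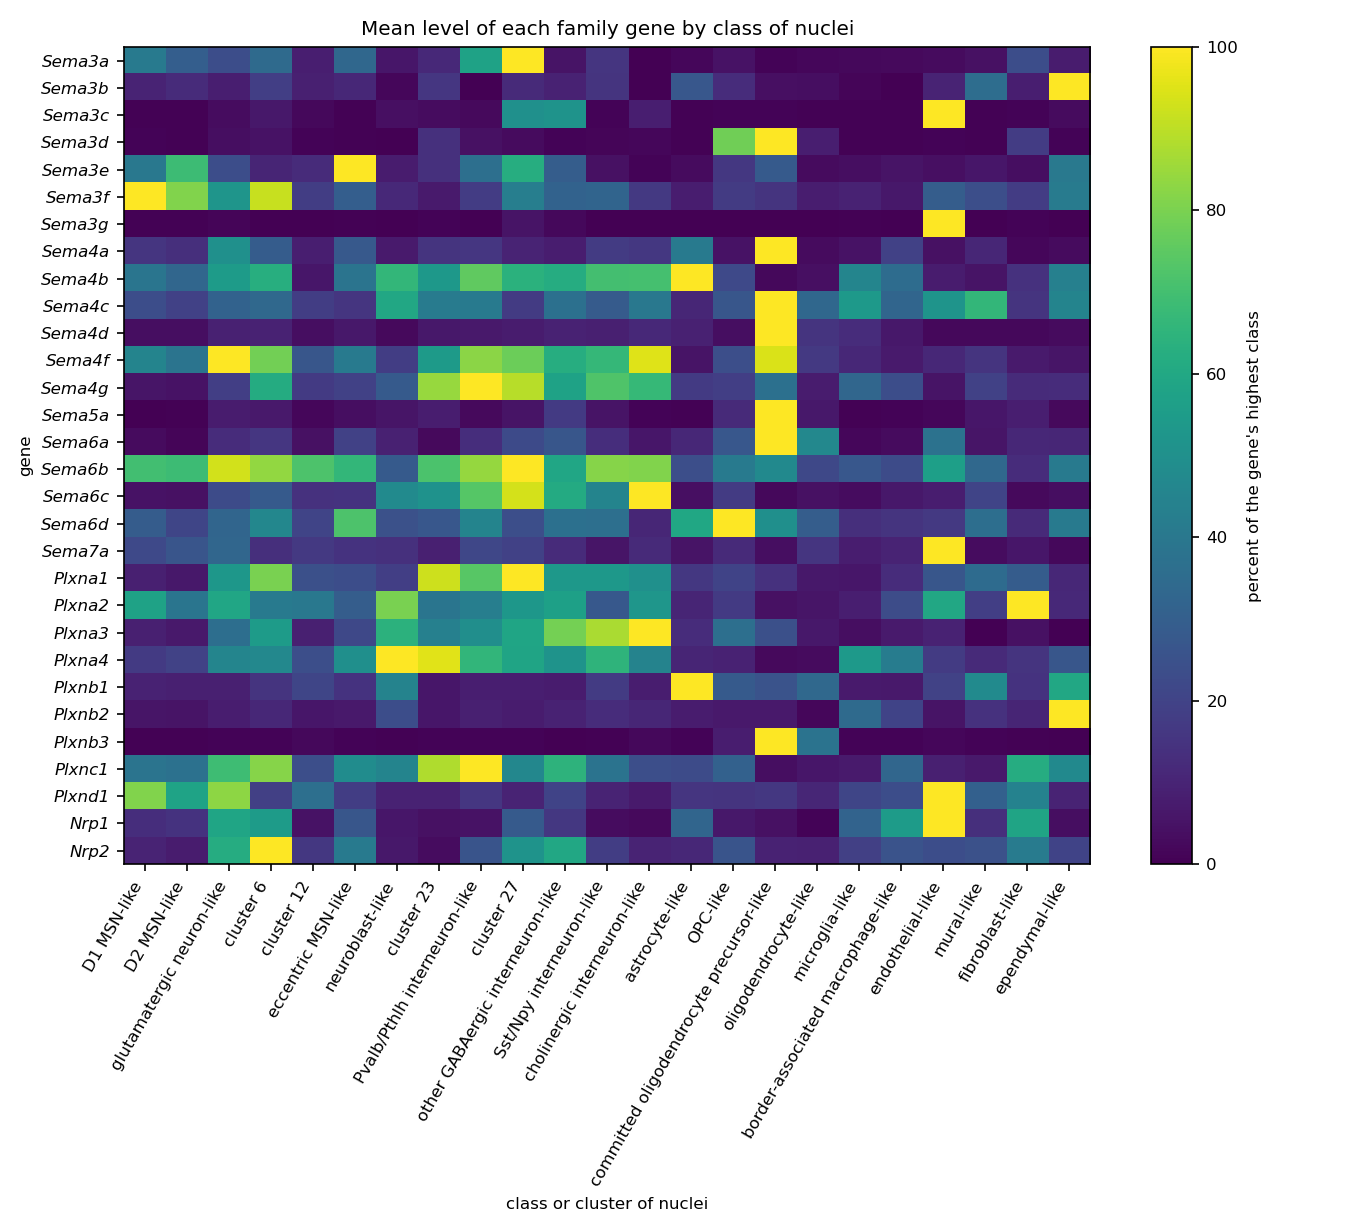
Mean level of each of the 30 genes (rows) in 23 classes or clusters of nuclei (columns), as a percent of the gene's own highest class, from the means of 6 libraries. The column of committed oligodendrocyte precursor-like nuclei holds the highest class of 7 genes and that of endothelial-like nuclei the highest class of 5.

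The promoters of 3 of these genes are shown because the genes were highest together in 1 stage of a lineage. Sema6a, the other of the 4 genes at least 2-fold above their second class, had no entry among the promoters used. The promoters shown are the 250 bases before a transcript start of each gene, as listed first in the RefSeq table (build GRCm38.p6). Plxnb3 lies on the plus strand at chrX:73756853-73757102, Sema4d on the minus strand at chr13:51748811-51749060, and Sema5a on the plus strand at chr15:32244563-32244812. For Sema4d the table lists 3 starts, all inside the gene as GENCODE vM21 draws it: the one shown lies 44.9 kb downstream of the 5′ end there, and the other 2 lie 37.1 and 54.3 kb downstream. The region before that 5′ end is not shown, and 3′ libraries do not tell which start these nuclei used. Capitals mark ACAAAG or ACAATG on either strand, cores of the motif that SOX-family factors such as Sox10 recognise.
Plxnb3: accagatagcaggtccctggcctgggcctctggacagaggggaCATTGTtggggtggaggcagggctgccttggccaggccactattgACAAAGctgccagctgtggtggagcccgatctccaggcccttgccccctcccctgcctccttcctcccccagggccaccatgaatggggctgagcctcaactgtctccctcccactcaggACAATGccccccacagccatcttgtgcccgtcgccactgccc
Sema4d: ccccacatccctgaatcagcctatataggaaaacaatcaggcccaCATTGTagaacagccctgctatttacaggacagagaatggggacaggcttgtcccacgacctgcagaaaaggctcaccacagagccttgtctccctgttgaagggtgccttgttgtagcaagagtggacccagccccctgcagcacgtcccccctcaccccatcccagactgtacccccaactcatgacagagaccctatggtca
Sema5a: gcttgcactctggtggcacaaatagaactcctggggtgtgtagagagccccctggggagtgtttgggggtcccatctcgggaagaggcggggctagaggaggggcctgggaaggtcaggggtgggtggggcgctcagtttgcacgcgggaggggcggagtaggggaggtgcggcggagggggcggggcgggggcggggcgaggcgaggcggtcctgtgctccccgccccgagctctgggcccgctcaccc

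The Plxnb3 window held 1 match to ACAAAG, at position -162 from the start (the base before the start is -1 and the first base of the match is given), and 2 to ACAATG, at -207 and -42. The Sema4d window held 1 match to ACAATG, at -205, and the other 2 starts of this gene had none. Neither motif occurred in the Sema5a window, which was rich in G and C (72.0%, against a median of 52.4% over all promoters) and held 5 matches to GGGCGG, the box bound by Sp1-type factors. Of all 32851 promoter windows of this length, 25.2% held ACAAAG or ACAATG and 32.7% held GGGCGG. Of the 36 windows of the 25 family genes in the table, 8 held either SOX-type core and 27 held GGGCGG. A match shows letters in the reference sequence, not a bound site.

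Sema5a, a semaphorin with thrombospondin repeats, stood far above every other class in the committed precursors. Its level was 12.2, 14.7 and 12.1 in the wild-type and 13.96, 14.2 and 12.8 in the heterozygous libraries, a mean of 13.3 ± 1.11 (SD, n = 6). OPC-like nuclei averaged 1.56 ± 0.371 and oligodendrocyte-like nuclei 0.85 ± 0.281, and the second class of all, other GABAergic interneuron-like nuclei, 2.24 ± 0.428. No library of the committed precursors overlapped with any library of these classes. In D1-like nuclei, the lowest class for this gene, the mean was 0.0512.

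Sema4d, a ligand of B-type plexins, had its highest mean in the same class. Committed precursors showed 4.3, 5.5 and 4.33 in the wild-type and 6.96, 6.31 and 5.27 in the heterozygous libraries, 5.44 ± 1.06 on average (SD, n = 6). The mean was 0.192 ± 0.0704 in OPC-like and 0.821 ± 0.083 in oligodendrocyte-like nuclei, the second class, and no library of either came near the committed precursors. Microglia-like nuclei followed, at 0.7 ± 0.0636.

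Plxnb3, a B-type plexin that can act as a receptor for Sema5a, was found at a mean above 0.3 only in the committed precursors and in oligodendrocyte-like nuclei, of the 23 classes. Its level in the committed precursors was 1.24, 1.71 and 1.32 in the wild-type and 1.68, 1.78 and 1.35 in the heterozygous libraries (1.51 ± 0.234, SD, n = 6). Oligodendrocyte-like nuclei held 0.578 ± 0.134 and OPC-like nuclei 0.121 ± 0.0413. The lowest class, other GABAergic interneuron-like nuclei, stood at 0.00412.

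Sema6a, a transmembrane ligand of A-type plexins, measured 3.52, 5.83 and 4.62 in the wild-type and 4.86, 3.57 and 4.78 in the heterozygous libraries of committed precursors. The mean of 4.53 ± 0.871 (SD, n = 6) exceeded that of the whole oligodendrocyte-like class, 2.12 ± 0.368, without overlap. OPC-like nuclei lay lower at 1.22 ± 0.252. Against the clusters of the oligodendrocyte-like class this did not hold throughout. Cluster 11 (led by Gm5087) averaged 3.25 ± 0.315, with 3.65 in wild-type replicate 2, and overlapped with the committed precursors. Sema6a was above 0 in 57.2% of committed precursor and 65.2% of oligodendrocyte-like nuclei, averaged over the libraries. Endothelial-like nuclei also held this transcript, at 1.7 ± 0.329.

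Sema6d and Sema3d had high means in OPC-like nuclei as well. Sema6d, whose main receptor is Plxna1, had its highest mean there, at 7.98, 11.2 and 7.32 in the wild-type and 9.48, 9.43 and 9.97 in the heterozygous libraries (9.23 ± 1.4, SD, n = 6). It averaged 4.61 ± 1.74 in the committed precursors and 2.73 ± 0.0768 in oligodendrocyte-like nuclei. Eccentric MSN-like nuclei, at 6.65 ± 1.3, overlapped with the OPC-like ones. In OPC-like nuclei 95.00% of values were 2 or more, whereas 82.7% in microglia-like, 85.5% in border-associated macrophage-like and 77.9% in cluster 12 were exactly 1. Among oligodendrocyte-like nuclei 96.95% of the shallower and 73.8% of the deeper ones were above 0. In nuclei of 2000 or more genes Sema6d averaged 9.25 ± 1.84 in OPC-like, 4.5 ± 1.91 in committed oligodendrocyte precursor-like and 2.66 ± 0.147 in oligodendrocyte-like nuclei. The lowest mean, 1.01, was in cholinergic interneuron-like nuclei. Sema3d, a secreted ligand, had its highest mean in the committed precursors. It reached 2.04, 2.34 and 2.97 in the wild-type and 1.21, 1.84 and 2.64 in the heterozygous committed precursors (2.17 ± 0.62, SD, n = 6). OPC-like nuclei, at 1.71 ± 0.352, overlapped with them, while oligodendrocyte-like nuclei held 0.18 ± 0.0349.

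The remaining ligands with their highest mean in the committed precursors overlapped with other classes. Sema4a, known also from immune and retinal cells, measured 0.34, 0.717 and 0.453 in the wild-type and 0.964, 0.796 and 0.697 in the heterozygous libraries. It overlapped with glutamatergic neuron-like nuclei (0.332 ± 0.0531, SD, n = 6), but OPC-like and oligodendrocyte-like nuclei averaged only 0.0331 ± 0.0208 and 0.0195 ± 0.00397. Sema4c, a partner of Plxnb2, averaged 0.134 ± 0.0676 and overlapped with 18 other classes.

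**Figure D2:**
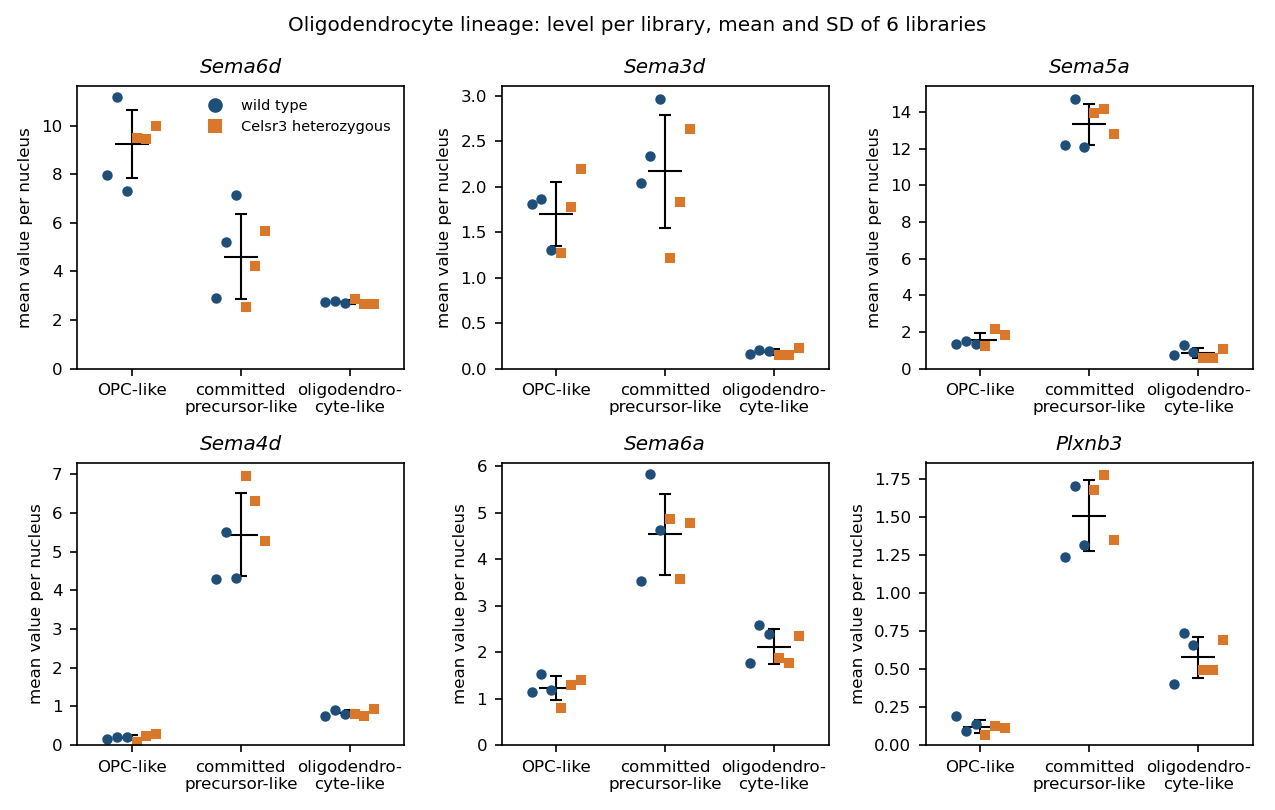
Mean value per nucleus of 6 family genes (panels) in OPC-like, committed oligodendrocyte precursor-like and oligodendrocyte-like nuclei; each point is 1 library (wild type or Celsr3 heterozygous) and black bars give the mean and SD of 6 libraries. Sema6d is highest on average in OPC-like nuclei, whereas Sema5a, Sema4d, Sema6a and Plxnb3 are highest in the committed precursors without overlap between the whole classes.

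Within the oligodendrocyte-like class the ligands were split between clusters. Sema5a averaged 2.0 ± 0.509 (SD, n = 6) in cluster 5 (led by 4930420G21Rik, Gm33255 and Anln), against 0.344 ± 0.116 in cluster 0 (Fbxw15) and 0.453 ± 0.0829 in cluster 11 (Gm5087). Sema3d was instead highest in cluster 11, at 0.631 ± 0.151, against 0.105 ± 0.0105 and 0.0912 ± 0.0283 in clusters 0 and 5. Sema4f, a ligand of class 4, and Sema6a were highest in cluster 11 too, at 0.206 ± 0.0387 and 3.25 ± 0.315.

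Endothelial-like nuclei held the highest level of 5 genes, 4 of them among the 28 past the limit above, where 6.87% of all genes were highest in this class. Nrp1, the neuropilin of endothelial growth factor signalling, measured 1.31, 2.29 and 1.78 in the wild-type and 1.35, 1.45 and 1.64 in the heterozygous libraries (1.64 ± 0.366, SD, n = 6). Sema3c, a ligand known from cardiovascular development, measured 3.17, 2.05 and 2.69 in the wild-type and 2.84, 2.9 and 2.78 in the heterozygous libraries (2.74 ± 0.374). Both overlapped with neurons: Nrp1 with glutamatergic neuron-like nuclei at 0.963 ± 0.347, and Sema3c with other GABAergic interneuron-like nuclei at 1.41 ± 0.516. For Nrp1 the endothelial-like class overlapped with 4 classes in all, among them border-associated macrophage-like nuclei (values below). Sema7a, the lipid-anchored member, reached 0.719, 0.633 and 1.04 in the wild-type and 0.743, 0.805 and 0.903 in the heterozygous libraries. Its mean of 0.807 ± 0.145 was 3.03 times that of glutamatergic neuron-like nuclei, and the libraries of the classes did not overlap. Sema3g, a class 3 ligand described in arterial endothelium, averaged 0.195 ± 0.0912 in endothelial-like nuclei and at most 0.0105 in any other of the 23 classes. Plxnd1, the vascular receptor of Sema3e, averaged 0.273 ± 0.0578 and overlapped with glutamatergic neuron-like nuclei at 0.227 ± 0.0932.

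Among the A-type plexins, Plxna4 had its highest mean in neuroblast-like nuclei, at 7.34, 4.8 and 5.32 in the wild-type and 4.75, 7.66 and 5.9 in the heterozygous libraries (5.96 ± 1.27, SD, n = 6). Cluster 23 (Sfta3-ps, Gna14) overlapped with it at 5.68 ± 0.565. Among neuroblast-like nuclei 78.02% of the shallower and 47.8% of the deeper ones were above 0, and in nuclei of 2000 or more genes their mean was 4.17 ± 1.06 and that of cluster 23, then the highest, 5.72 ± 0.581. Microglia-like nuclei held 3.0, 3.39 and 3.25 in the wild-type and 3.3, 2.9 and 3.43 in the heterozygous libraries, and the mean was 3.56 ± 0.401 in those of 2000 or more genes. Of the microglia-like nuclei 82.3% of the shallower and 71.5% of the deeper ones were above 0 and 64.3% were at 2 or more. Pde10a, a spiny neuron gene, was at 2 or more in 85.3% of them, with a mean of 3.11 in those of 2000 or more genes, so these values do not by themselves show expression of Plxna4 in microglia. Committed precursors had the lowest mean, 0.149. Plxna4 has antisense genes on the other strand within its locus, and whether counting used strand is not given in the sources used here. Plxna2 was highest in fibroblast-like nuclei, at 3.36, 2.04 and 3.48 in the wild-type and 5.5, 2.91 and 1.74 in the heterozygous libraries (3.17 ± 1.34). The fibroblast-like class held 14 to 98 nuclei per library, and neuroblast-like nuclei at 2.54 ± 0.416 overlapped with it. Plxna1 and Plxna3 stayed below a mean of 0.3 in every class, with their highest means in cluster 27 (Lhx8, Sfta3-ps), 0.243 ± 0.09, and in cholinergic interneuron-like nuclei, 0.141 ± 0.0696. These top classes overlapped with 7 other classes for Plxna1 and with 13 for Plxna3.

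The B-type plexins had their highest means in different kinds of glia. Plxnb1, the receptor of Sema4d, was highest in astrocyte-like nuclei, at 0.442, 0.56 and 0.453 in the wild-type and 0.446, 0.463 and 0.484 in the heterozygous libraries. Its mean of 0.475 ± 0.0443 (SD, n = 6) was the only one above 0.3 among the 23 classes. Plxnb2, the receptor of Sema4c, was highest in ependymal-like nuclei, at 1.1, 1.15 and 1.38 in the wild-type and 1.2, 0.526 and 0.787 in the heterozygous libraries (1.02 ± 0.312). The ependymal-like class held only 10 to 47 nuclei per library. Microglia-like nuclei came second at 0.353 ± 0.0556, without overlap.

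Plxnc1, the receptor of Sema7a, was highest in Pvalb/Pthlh interneuron-like nuclei, at 0.808, 0.5 and 0.928 in the wild-type and 0.711, 0.762 and 0.489 in the heterozygous libraries (0.7 ± 0.174, SD, n = 6). Cluster 23 overlapped with it at 0.616 ± 0.136. The Pvalb/Pthlh interneuron-like class had 5 of its 6 markers over 2-fold above the other nuclei, all but Pthlh. Nrp2, the neuropilin preferred by Sema3f, was highest in cluster 6, at 0.956, 0.758 and 1.17 in the wild-type and 1.74, 1.27 and 1.34 in the heterozygous libraries (1.2 ± 0.339). Glutamatergic neuron-like nuclei overlapped with it over a wide range, 0.205 to 1.36.

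Interneurons and unnamed neuronal clusters held the highest levels of several ligands. Sema3a, the prototype secreted repellent, was highest in cluster 27, at 2.45, 2.9 and 2.32 in the wild-type and 2.25, 1.86 and 1.95 in the heterozygous libraries (2.29 ± 0.377, SD, n = 6). Pvalb/Pthlh interneuron-like nuclei overlapped at 1.32 ± 0.52, and in the 192 cholinergic interneuron-like nuclei it was listed at 0 in every library. Sema4g was highest in Pvalb/Pthlh interneuron-like nuclei, at 0.321, 0.381 and 0.433 in the wild-type and 0.223, 0.238 and 0.267 in the heterozygous libraries (0.31 ± 0.0835). This class overlapped with 6 others for Sema4g, of which cluster 27 was the highest at 0.277 ± 0.0761. Sema4g was below the filter on summed values in Pvalb/Pthlh interneuron-like nuclei and was not tested for genotype there. The top means of 4 more ligands overlapped with the second class: Sema6b in cluster 27 (0.264 ± 0.0346), Sema6c in cholinergic interneuron-like (0.258 ± 0.124), Sema4f in glutamatergic neuron-like (0.265 ± 0.0517) and Sema4b in astrocyte-like nuclei (0.258 ± 0.0214). Sema3f was low throughout, with a top mean of 0.08 ± 0.0138 in D1-like nuclei. Sema3b was lower still, at 0.0409 ± 0.0519 in the few ependymal-like nuclei, where 3 of 6 libraries were at 0.

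Sema3e, the ligand of Plxnd1, had its highest means in spiny neurons. Eccentric MSN-like nuclei held 1.39, 3.89 and 2.32 in the wild-type and 1.49, 1.95 and 2.35 in the heterozygous libraries (2.23 ± 0.905, SD, n = 6). D2-like nuclei were second, at 1.31, 1.77 and 1.51 in the wild-type and 1.34, 1.69 and 1.6 in the heterozygous libraries. D1-like nuclei held 0.797, 0.991 and 0.834 in the wild-type and 0.883, 0.974 and 0.872 in the heterozygous libraries. The D1-like level was lower in 6 of 6 libraries, with a difference of -0.77 ± 0.10 (SD) in log2 of the level with 0.01 added, and the ranges did not overlap. The gene Gm4128, on the other strand within Sema3e, averaged 0.162 in all nuclei.

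Plxnd1 had the opposite preference. D1-like nuclei held 0.221, 0.208 and 0.192 in the wild-type and 0.211, 0.238 and 0.26 in the heterozygous libraries. D2-like nuclei held 0.147, 0.158 and 0.135 in the wild-type and 0.176, 0.179 and 0.155 in the heterozygous libraries. The difference of 0.46 ± 0.16 (log2, SD) was seen in 6 of 6 libraries without overlap. As means over the whole classes the ligand was thus higher in D2-like and the receptor in D1-like nuclei, but for the ligand this did not hold between all clusters of the classes. Sema3e averaged 0.951 ± 0.0878 (SD, n = 6) in cluster 1, the largest D2-like cluster with 44.16% to 60.41% of the D2-like nuclei of a library, below 1.06 ± 0.169 in cluster 3 and 1.36 ± 0.157 in cluster 14 of the D1-like nuclei; its libraries overlapped with those of cluster 3 and not with those of cluster 14. The high D2-like clusters were 8, at 1.42 ± 0.211, and 10, at 3.42 ± 0.723, and the low D1-like cluster was 2, at 0.599 ± 0.084. For Plxnd1, D2-like cluster 8, at 0.193 ± 0.0334, had a lower mean than the 3 D1-like clusters and overlapped with each of them.

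Sema6a had the largest ratio between the spiny neuron types among the 23 family genes compared. It measured 0.166, 0.111 and 0.106 in the wild-type and 0.104, 0.14 and 0.122 in the heterozygous D1-like nuclei. In D2-like nuclei it measured 0.0459, 0.0542 and 0.0682 in the wild-type and 0.0462, 0.0552 and 0.0641 in the heterozygous libraries. The ratio of the means was 2.25, and it did not reach 2-fold in every library. Cluster 3 of the D1-like nuclei was highest, at 0.198 ± 0.0282 (SD, n = 6). Cluster 2, which made up 36.51% to 51.39% of the D1-like nuclei of a library, held 0.059 ± 0.00746, and cluster 14 0.101 ± 0.0162. Of the D2-like clusters, 8 held 0.0833 ± 0.0165, a higher mean than that of cluster 2 with overlapping libraries, and clusters 1 and 10 held 0.044 ± 0.0104 and 0.0496 ± 0.0121. Plxna2, a receptor of Sema6a, was also higher in D1-like nuclei without overlap, 1.82 ± 0.197 against 1.23 ± 0.0849 (SD, n = 6), as means over the whole classes. This did not hold between all clusters either: Plxna2 averaged 1.62 ± 0.0456 in cluster 8 of the D2-like nuclei, above 1.53 ± 0.289 in cluster 2 and 1.59 ± 0.196 in cluster 14 of the D1-like nuclei, with overlapping libraries.

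Of the 23 family genes with a mean of at least 0.02 in either type, 3 were higher in D1-like nuclei without overlap of the libraries, against 4.4% of all genes, and 1 was higher in D2-like nuclei, against 1.88%. D1-like nuclei were higher in 6 of 6 libraries for 9 genes (24.2% of all genes) and D2-like nuclei for 4 (7.42%). The 4 were Sema3e, Sema5a, Sema7a and Plxna4. Of these Plxna4 averaged 1.47 ± 0.121 in D1-like cluster 3, more than in D2-like clusters 1 and 10 (0.897 ± 0.0912 and 1.08 ± 0.134). Sema7a averaged less in D2-like cluster 8 than in D1-like clusters 2 and 14 (values below). Sema6d, among the 9, had its highest mean of the spiny neuron clusters in D2-like cluster 10.

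**Figure D3:**
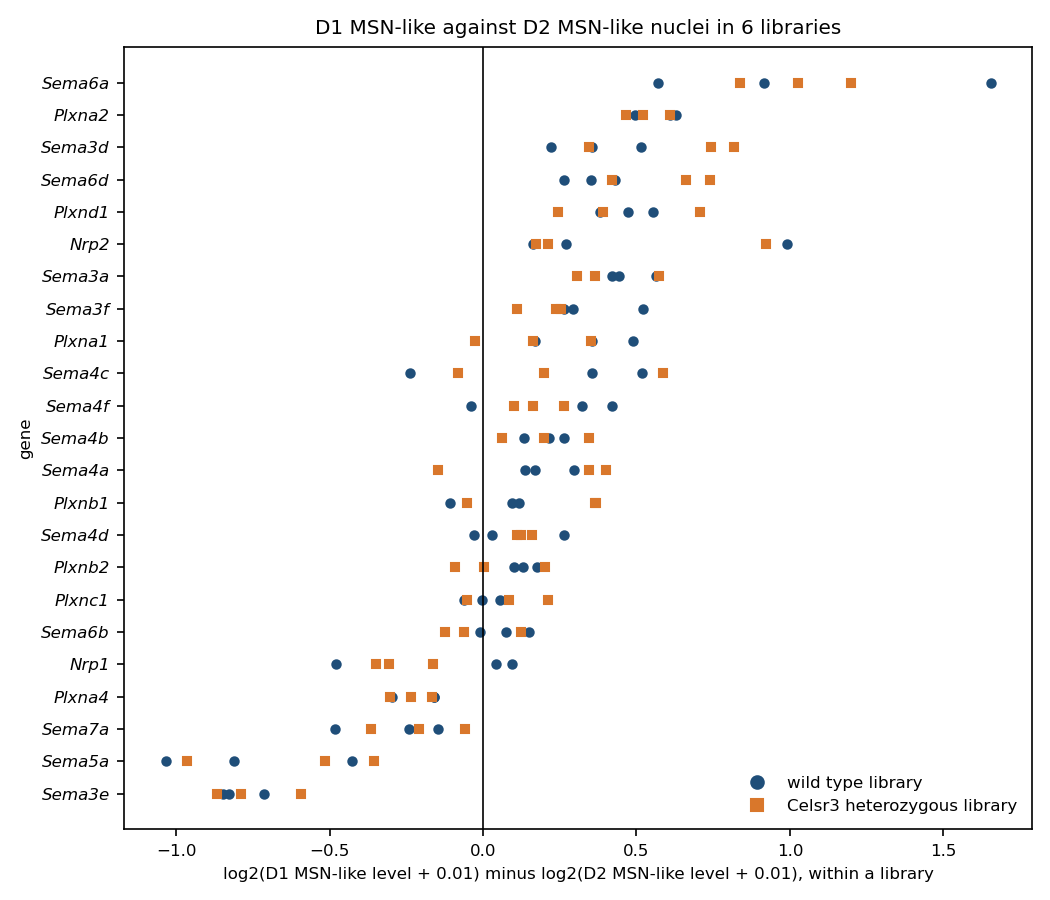
Difference between the spiny neuron types for the 23 family genes with a mean of at least 0.02 in either: log2 level in D1 MSN-like minus log2 level in D2 MSN-like nuclei within a library, with 0.01 added to each level. Each point is 1 library (wild type or Celsr3 heterozygous); Sema6a lies above 0 in all 6 and Sema3e below 0 in all 6.

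Levels also differed between the clusters within each spiny neuron type. Nrp2 was concentrated in cluster 3 of the D1-like nuclei (led by Cftr, Tcfl5 and Pdyn) and cluster 8 of the D2-like nuclei (led by P2ry1, Calcr and Drd2), at 0.235 ± 0.103 and 0.256 ± 0.179 (SD, n = 6). The other 4 spiny neuron clusters held 0.0326 to 0.0409 on average. Cluster 3 stayed above all their libraries, but cluster 8 at its lowest, 0.0545, overlapped with clusters 2, 10 and 14. Sema7a ran the other way, with 0.104 ± 0.00885 and 0.107 ± 0.0282 in clusters 3 and 8 and 0.231 to 0.261 elsewhere. Plxna4 went with Nrp2: 1.47 ± 0.121 in cluster 3 and 1.8 ± 0.146 in cluster 8 exceeded the other clusters of their types without overlap. Sema3e was highest in cluster 10 of the D2-like nuclei (led by 9230009I02Rik), at 2.77, 4.48 and 3.45 in the wild-type and 2.49, 3.47 and 3.85 in the heterozygous libraries. Sema6d was highest in the same cluster, at 5.0, 6.21 and 5.92 in the wild-type and 3.51, 4.06 and 5.85 in the heterozygous libraries. Among the D1-like clusters it was highest in cluster 14 (led by Impg1), where it averaged 3.68 ± 0.282.

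**Figure D4:**
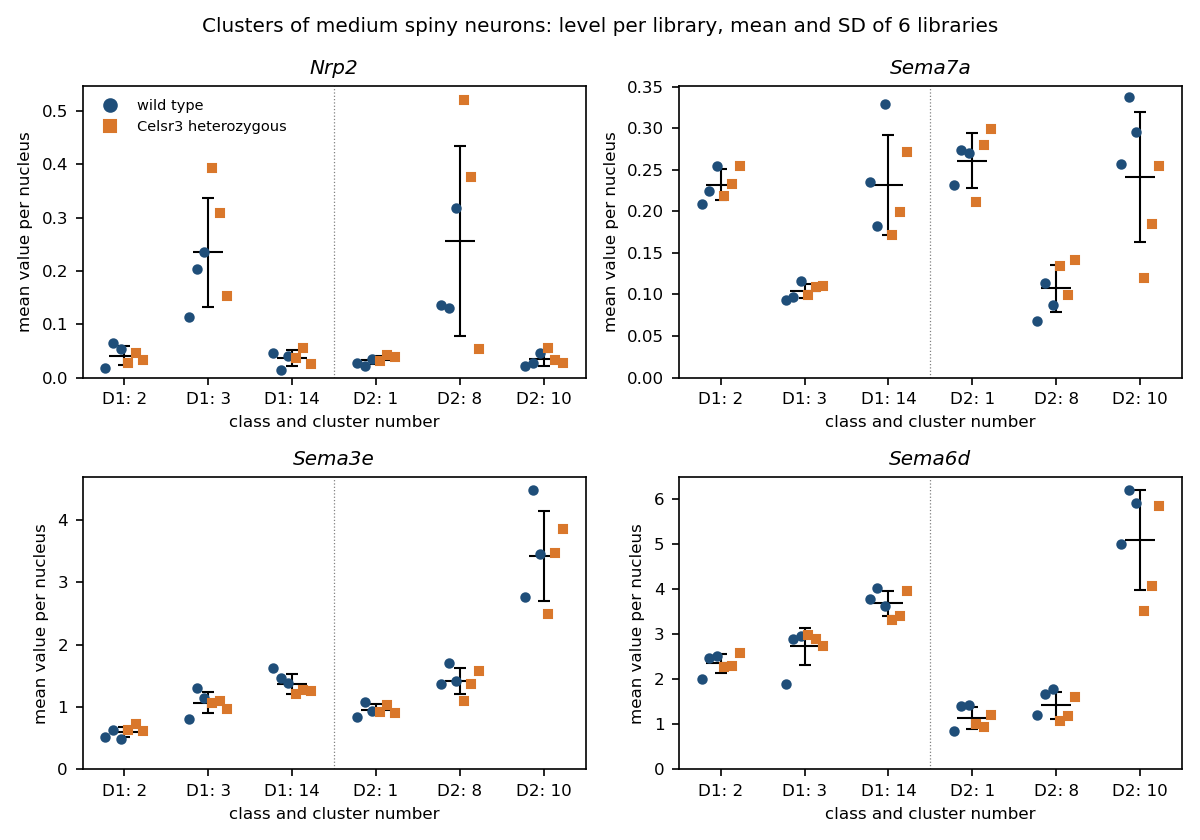
Mean value per nucleus of Nrp2, Sema7a, Sema3e and Sema6d (panels) in the 3 clusters of D1 MSN-like nuclei and the 3 of D2 MSN-like nuclei; points are libraries (wild type or Celsr3 heterozygous), black bars the mean and SD of 6 libraries. On average Nrp2 is high and Sema7a low in clusters 3 and 8, while Sema3e and Sema6d are highest in cluster 10.

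The genotype comparison asked whether any family gene differed between heterozygous and wild-type libraries, 3 against 3, in all nuclei and in 20 classes or clusters. No family gene passed an adjusted p under 0.05 (limma with Benjamini-Hochberg adjustment over all genes tested) in any of these populations. In all nuclei 0 of 28 tested members were called (0% of 14400 genes), in D1-like nuclei 0 of 22 (0.0149% of 13446) and in D2-like nuclei 0 of 21 (0.00786% of 12721). Of the 263 tests of a member in a population, 15 met the filter on low values through the heterozygous and 2 through the wild-type libraries alone, so the counts cover members that passed, not all 30. The share of all genes called was 0.00803% in glutamatergic neuron-like nuclei, 0.0482% in cluster 23 and 0% in the other populations.

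At an unadjusted p under 0.05 there were 3 members in all nuclei, where 9.92% of all genes passed, and 0 in D1-like and D2-like nuclei, where 9.79% and 8.62% passed. Among the classes, 4 of 10 members passed this unadjusted threshold in cluster 27 (5.96% of all genes), 3 of 20 in astrocyte-like nuclei (6.51%), 3 of 8 in committed precursors (6.54%) and 2 of 24 in cluster 6 (6.1%). The count in cluster 27 includes Nrp2, which met the filter there only through the heterozygous libraries, where it was higher. A single member passed in cluster 12 (3.95%), OPC-like nuclei (4.34%), cluster 23 (6.41%) and border-associated macrophage-like nuclei (3.75%). No member did in the other 10 populations, where 3.51% to 6.02% of all genes did.

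The heterozygous libraries all lay above the wild-type ones for 3 members in all nuclei (14.8% of all genes), 2 in D1-like (11.1%) and 1 in D2-like nuclei (9.16%), and below them for 0 members in each (4.43%, 5.09% and 5.42%). The 2 in D1-like nuclei were Sema4d and Sema5a. The heterozygous libraries lay above for 3 members in cluster 6 (5.78%), 2 in astrocyte-like nuclei (7.58%) and in cluster 27 (5.74%), and 1 in OPC-like nuclei (6.81%), committed precursors (6.07%) and border-associated macrophage-like nuclei (5.21%). The count in cluster 27 again includes Nrp2, which met the filter only through the heterozygous libraries. Those libraries lay below for 1 member in cluster 6 (6.24%), astrocyte-like nuclei (4.86%), microglia-like nuclei (4.81%), cluster 23 (5.52%), cluster 27 (5.07%), border-associated macrophage-like nuclei (3.48%) and cholinergic interneuron-like nuclei (3.74%). The members' median change was 0.12, 0.05 and 0.07 (log2) in all, D1-like and D2-like nuclei, beside 0.07, 0.05 and 0.04 over all genes. More members were higher than lower, 71.4%, 68.2% and 71.4% of those tested, as were 69.2%, 64.7% and 60.6% of all genes. With size factors estimated from the data these shares became 67.9%, 50% and 61.9% of the members and 51.8%, 49.5% and 49.0% of all genes.

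**Figure D5:**
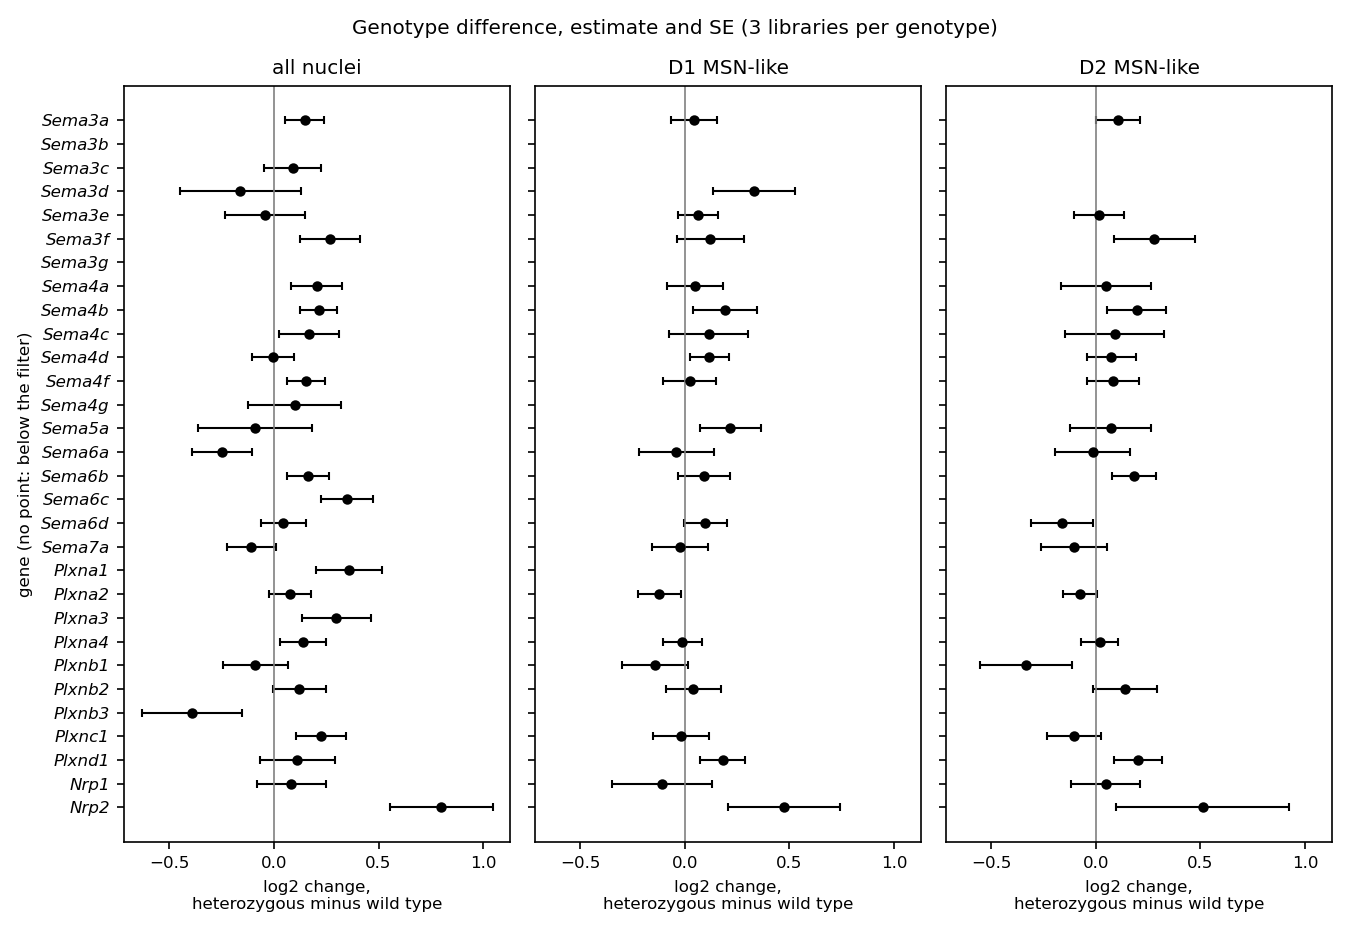
Change of each family gene between genotypes (log2 of the heterozygous minus log2 of the wild-type level, 0.01 added) in all nuclei and in the D1 MSN-like and the D2 MSN-like class; points are limma estimates and bars their SE from 3 against 3 libraries. Nrp2 has the largest estimate in all nuclei (0.80), and no gene passes the adjusted threshold.

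Nrp2 gave the smallest p of the family in all nuclei and in 5 classes or clusters, each time with a higher heterozygous mean. Where an alternative moved the change of a named gene by over 1.5 times, the range over all alternatives is given beside it. In cluster 27 it measured 0.479, 0.181 and 0.189 in the wild-type and 1.17, 0.73 and 0.974 in the heterozygous libraries, without overlap. The change was 1.84 ± 0.35 (log2, SE; limma adjusted p = 0.197), and it passed the threshold without wild-type replicate 1 (2.29, adjusted p = 0.035). The other alternatives gave limma adjusted p from 0.0944 with the replicate block to 0.529 without heterozygous replicate 3. Nrp2 met the filter here only through the heterozygous libraries: its values summed over nuclei averaged 20.7 in the wild-type and 52.3 in the heterozygous libraries, where 30 were needed, and without heterozygous replicate 2 it was not tested. With no filter the limma adjusted p was 0.223. Cluster 27 held 73, 72 and 74 wild-type and 24, 126 and 38 heterozygous nuclei. Of 21 marker lists 2 moved with genotype there without overlap: the summed OPC list was 13.6 to 14.3 in wild-type and 12.8 to 13.1 in heterozygous libraries, and the mural list, with 1 of 7 genes at 0, was 0.403 to 0.589 in wild-type and 0.25 to 0.294 in heterozygous libraries. Their part in the result was not tested.

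In cluster 6 Nrp2 was again higher in every heterozygous library (values above; 0.60 ± 0.18, range 0.36 to 0.75, limma adjusted p = 0.562). The summed microglia list was 1.19 to 1.44 in wild-type and 0.859 to 1.02 in heterozygous libraries of this cluster, and the D1 MSN list 2.51 to 2.71 in wild-type and 1.63 to 2.49 in heterozygous libraries, with no gene of either at 0. Their part was not tested.

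In all nuclei Nrp2 measured 0.22, 0.14 and 0.307 in the wild-type and 0.384, 0.382 and 0.363 in the heterozygous libraries, without overlap (0.80 ± 0.25, range 0.35 to 1.06, limma adjusted p = 0.455). With each class held at its share of the pooled nuclei in every library the change was 0.51, and with clusters so held 0.37. Without wild-type replicate 2 it was 0.52. Array weights gave 0.46, while leaving out wild-type replicate 3 gave 1.06. Nuclei matched on genes per nucleus within each cluster, which also fixes the cluster mix, gave 0.35. In a value over all nuclei, a change in the share of a cell type and a change in RNA per cell cannot be told apart. Cluster 6 made up 4.17%, 1.22% and 3.25% of the wild-type and 1.01%, 12.05% and 7.25% of the heterozygous nuclei. Glutamatergic neuron-like nuclei, the second class for Nrp2, made up 7.44%, 2.51% and 11.5% of the wild-type and 19.5%, 2.62% and 6.01% of the heterozygous nuclei. Of 21 marker lists 3 did not overlap between the genotypes over all nuclei, with no gene at 0. The summed neuroblast list (9 genes) was 0.717 to 0.906 in wild-type and 0.931 to 1.16 in heterozygous libraries, the microglia list (8 genes) 3.27 to 3.76 in wild-type and 2.6 to 2.9 in heterozygous libraries and the endothelial list (7 genes) 1.41 to 1.51 in wild-type and 0.852 to 1.36 in heterozygous libraries. Their part in the changes over all nuclei was not tested.

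In D1-like nuclei Nrp2 measured 0.0706, 0.107 and 0.119 in the wild-type and 0.175, 0.172 and 0.0863 in the heterozygous libraries, which overlapped (0.47 ± 0.27, range 0.24 to 0.78, limma adjusted p = 0.586). Cluster 3, where the D1-like transcript is concentrated, made up 51.38%, 35.05% and 36.7% of the wild-type and 39.83%, 47.38% and 45.53% of the heterozygous D1-like nuclei. Holding each cluster at its share of the pooled nuclei in every library gave a change of 0.41 (limma adjusted p = 0.689). In cluster 12 (led by Pmch) Nrp2 measured 0.128, 0.0874 and 0.184 in the wild-type and 0.209, 0.416 and 0.158 in the heterozygous libraries (0.86 ± 0.39, range 0.48 to 1.15, limma adjusted p = 0.982). In endothelial-like nuclei it measured 0.124, 0.249 and 0.328 in the wild-type and 0.24, 0.32 and 0.438 in the heterozygous libraries (0.55 ± 0.34, range 0.17 to 0.84, limma adjusted p = 0.948). Both overlapped between the genotypes. Leaving out wild-type replicate 1 lowered the endothelial-like change to 0.17 and leaving out heterozygous replicate 3 to 0.34, while it rose to 0.84 when wild-type replicate 3 was dropped and was 0.22 with array weights.

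Sema6c and Sema4b were the other members with heterozygous libraries above all wild-type ones over all nuclei. Sema6c, a transmembrane ligand, measured 0.028, 0.0235 and 0.0325 in the wild-type and 0.0346, 0.0387 and 0.0414 in the heterozygous libraries (0.35 ± 0.12, range 0.098 to 0.44, limma adjusted p = 0.468). Sema4b, a class 4 ligand, measured 0.0908, 0.0987 and 0.105 in the wild-type and 0.107, 0.124 and 0.115 in the heterozygous libraries (0.21 ± 0.09, range 0.11 to 0.26, limma adjusted p = 0.503). Matching the nuclei on genes per nucleus within each cluster gave 0.098 for Sema6c and 0.12 for Sema4b. With each class held at its share of the pooled nuclei the changes were 0.21 and 0.11. In microglia-like nuclei Sema4b had the opposite sign, 0.133, 0.126 and 0.161 in the wild-type and 0.0733, 0.118 and 0.0962 in the heterozygous libraries (-0.52 ± 0.25, range -0.67 to -0.30, limma adjusted p = 0.918). The summed microglia list there was 50.1 to 52.6 in wild-type and 37.4 to 47.4 in heterozygous libraries, and its part in the result was not tested.

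In the glial lineage Sema3e gave the smallest p among committed precursors. It measured 0.24, 0.63 and 0.4 in the wild-type and 0.964, 0.816 and 0.768 in the heterozygous libraries, without overlap. The change was 1.08 ± 0.31 (limma adjusted p = 0.623) in libraries of 50, 92 and 95 wild-type and 28, 49 and 99 heterozygous nuclei. In OPC-like nuclei Plxnc1 measured 0.173, 0.185 and 0.158 in the wild-type and 0.276, 0.26 and 0.259 in the heterozygous libraries, without overlap (0.59 ± 0.26, limma adjusted p = 0.902). Heterozygous replicate 1 gave only 29 of these nuclei, and the summed macrophage list there, with 2 of 7 genes at 0, was 0 to 0.0161 in wild-type and 0.0172 to 0.138 in heterozygous libraries. Its part was not tested. In cluster 23 the same receptor went the other way, 0.73, 0.807 and 0.616 in the wild-type and 0.442, 0.595 and 0.506 in the heterozygous libraries (-0.48 ± 0.18, limma adjusted p = 0.62), and the summed neuroblast list was 1.51 to 1.67 in wild-type and 1.76 to 1.97 in heterozygous libraries. The difference between these changes of Plxnc1 was 1.07 ± 0.28, with a limma adjusted p of 0.932 over 3672 genes.

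In astrocyte-like nuclei Sema5a measured 0.0518, 0.0512 and 0.0668 in the wild-type and 0.0732, 0.0751 and 0.113 in the heterozygous libraries, without overlap (0.53 ± 0.20, range 0.25 to 0.64, limma adjusted p = 0.708). The summed OPC list was 0.97 to 0.987 in wild-type and 1.04 to 1.12 in heterozygous libraries of these nuclei, and its part was not tested. In oligodendrocyte-like nuclei Plxna2 measured 0.176, 0.145 and 0.144 in the wild-type and 0.188, 0.225 and 0.172 in the heterozygous libraries, which overlapped (0.31 ± 0.14, limma adjusted p = 0.94).

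Nrp1 had lower values in the heterozygous border-associated macrophage-like nuclei, at 1.6, 0.907 and 1.04 in the wild-type and 0.523, 0.609 and 0.714 in the heterozygous libraries. The groups did not overlap, and the change was -0.90 ± 0.26, range -1.57 to -0.66 (limma adjusted p = 0.996). The libraries held 48, 43 and 51 wild-type and 111, 64 and 56 heterozygous of these nuclei. The summed list of their own markers was 3.96 to 7.23 in wild-type and 3.04 to 9.96 in heterozygous libraries, which overlapped.

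In the spiny neurons the members of smallest p differed by little more than the spread of the libraries. In D1-like nuclei Sema3d measured 0.0128, 0.0236 and 0.0196 in the wild-type and 0.0234, 0.0291 and 0.0247 in the heterozygous libraries (0.33 ± 0.20, range 0.084 to 0.47, limma adjusted p = 0.597). Sema3d met the filter only through the heterozygous libraries, with a mean of 0.0187 in the wild-type and 0.0257 in the heterozygous ones, where 0.02 was needed. The change of Plxnd1 was 0.18 ± 0.11 in D1-like and 0.20 ± 0.11 in D2-like nuclei (values above; ranges 0.11 to 0.26 and 0.13 to 0.26; limma adjusted p = 0.608 and 0.669). Sema6b, a ligand of A-type plexins, measured 0.16, 0.17 and 0.175 in the wild-type and 0.176, 0.2 and 0.202 in the heterozygous D2-like nuclei, without overlap (0.18 ± 0.11, range 0.10 to 0.24, limma adjusted p = 0.672). Plxnb1 measured 0.0406, 0.0493 and 0.0481 in the wild-type and 0.0253, 0.03 and 0.0515 in the heterozygous D2-like nuclei, which overlapped (-0.33 ± 0.22, range -0.57 to -0.11, limma adjusted p = 0.715). The summed microglia list was 1.05 to 1.15 in wild-type and 0.962 to 0.993 in heterozygous libraries of D1-like nuclei and 0.913 to 0.982 in wild-type and 0.802 to 0.86 in heterozygous libraries of D2-like nuclei, without overlap, and its part was not tested.

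Plxna2 gave the smallest p in a pair of interneuron classes with opposite signs. It measured 0.636, 0.962 and 0.652 in the wild-type and 0.906, 0.981 and 1.07 in the heterozygous Sst/Npy interneuron-like nuclei (0.41 ± 0.23, limma adjusted p = 0.864). In cholinergic interneuron-like nuclei it measured 2.04, 1.66 and 1.61 in the wild-type and 1.5, 1.58 and 1.58 in the heterozygous libraries (-0.18 ± 0.14, range -0.24 to -0.071, limma adjusted p = 0.938). The former overlapped between the genotypes and the latter did not.

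Sema6d gave the smallest p in eccentric MSN-like nuclei, at 5.87, 7.79 and 8.46 in the wild-type and 4.92, 6.14 and 6.73 in the heterozygous libraries (-0.31 ± 0.17, range -0.47 to -0.079, limma adjusted p = 0.972). It did so too in neuroblast-like nuclei, at 2.29, 2.42 and 2.8 in the wild-type and 2.0, 1.98 and 2.29 in the heterozygous libraries (-0.25 ± 0.14, range -0.41 to -0.17, limma adjusted p = 0.954). Both overlapped. Sema6c in glutamatergic neuron-like nuclei measured 0.0565, 0.0513 and 0.0392 in the wild-type and 0.0564, 0.0605 and 0.0899 in the heterozygous libraries (0.41 ± 0.24, range 0.18 to 0.77, limma adjusted p = 0.928). It met the filter only through the heterozygous libraries, with sums averaging 26.00 in the wild-type and 48.3 in the heterozygous libraries. Plxna4 in mural-like nuclei measured 0.967, 0.436 and 0.543 in the wild-type and 0.975, 0.644 and 0.702 in the heterozygous libraries (0.31 ± 0.34, range 0.069 to 0.63, limma adjusted p = 0.959). Of mural-like nuclei 80.3% of the shallower and 29.1% of the deeper ones were above 0 for this gene. The genotypes overlapped for Sema6c and Plxna4, as did Plxnc1 in Pvalb/Pthlh interneuron-like nuclei (values above; -0.16 ± 0.26, range -0.42 to 0.028, limma adjusted p = 0.946), whose sign turned without wild-type replicate 3 (0.014) or heterozygous replicate 3 (0.028).

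A separate fit asked whether the genotype difference itself differed between D1-like and D2-like nuclei. No family gene passed in limma, 0 of 21 (0.00789% of 12669 genes), and the only one with an unadjusted p under 0.05 was Sema6d, a threshold that 5.1% of all genes passed. In D1-like nuclei it measured 2.16, 2.85 and 2.81 in the wild-type and 2.71, 2.73 and 2.86 in the heterozygous libraries. In D2-like nuclei it measured 1.6, 2.23 and 2.34 in the wild-type and 1.62, 1.72 and 2.13 in the heterozygous libraries. The change was 0.26 ± 0.06 larger in D1-like than in D2-like nuclei (log2, SE; limma adjusted p = 0.348). It passed without wild-type replicate 1 (0.30, adjusted p = 0.0393 by limma) and without heterozygous replicate 3 (0.35, adjusted p = 0.00392). The other alternatives gave 0.0855 with array weights to 0.9996 without heterozygous replicate 2. Cluster 10, where Sema6d is high, made up 15.38%, 15.89% and 18.62% of the wild-type and 24.25%, 22.4% and 17.59% of the heterozygous D2-like nuclei. With each cluster held at its share of the pooled nuclei in every library the difference was 0.37 (limma adjusted p = 0.0908).

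The second smallest p of that fit belonged to Nrp1. It measured 0.137, 0.299 and 0.242 in the wild-type and 0.172, 0.215 and 0.212 in the heterozygous D1-like nuclei. In D2-like nuclei it measured 0.194, 0.28 and 0.235 in the wild-type and 0.194, 0.276 and 0.264 in the heterozygous libraries. The difference of the changes was -0.16 ± 0.12 (range -0.34 to -0.053; limma adjusted p = 0.957), and the genotypes overlapped in both types.

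Celsr3 and several members lie on chromosome 9 (GRCm38, GENCODE vM21 annotation), Celsr3 at chr9:108826320-108852969. Plxnb1, at chr9:109095389-109119917, is 0.242 Mb away, Sema3f 1.116 Mb, Sema3b 1.217 Mb and Sema7a 50.863 Mb. In all nuclei the change of Plxnb1 was -0.09 ± 0.16, that of Sema3f 0.27 ± 0.15 and that of Sema7a -0.11 ± 0.12 (limma adjusted p = 0.814, 0.532 and 0.712), and Sema3b was below the filter.

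Downstream of the receptors, 50 genes of plexin signalling were counted, among them collapsin response mediators, MICAL oxidases, adhesion co-receptors and alternative receptors. By limma 0 of them passed in all, D1-like or D2-like nuclei, of 45, 42 and 40 tested, with 3, 3 and 1 below an unadjusted p of 0.05. These are 6.67%, 7.14% and 2.5% of those tested, below the 9.92%, 9.79% and 8.62% of all genes. For 8 of 45, 7 of 42 and 4 of 40 the heterozygous libraries all lay above the wild-type ones (14.8%, 11.1% and 9.16% of all genes). For 1, 0 and 0 they all lay below (4.43%, 5.09% and 5.42%). The median changes of the pathway genes were 0.04, 0.05 and 0.06, beside 0.07, 0.05 and 0.04 over all genes. Dpysl2, the collapsin response mediator that carries the Sema3a signal to microtubules, measured 0.695, 0.677 and 0.644 in the wild-type and 0.797, 0.859 and 0.793 in the heterozygous D1-like nuclei. The groups did not overlap (0.28 ± 0.07, limma adjusted p = 0.283), and the gene passed with array weights (0.34, adjusted p = 0.0348), while its other alternatives gave 0.0778 to 0.797. In D2-like nuclei it measured 0.728, 0.587 and 0.613 in the wild-type and 0.767, 0.845 and 0.715 in the heterozygous libraries, which overlapped (0.27 ± 0.10, limma adjusted p = 0.5).

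Cntn2, an axonal adhesion molecule, measured 0.17, 0.141 and 0.137 in the wild-type and 0.178, 0.181 and 0.203 in the heterozygous D1-like nuclei (0.31 ± 0.12, range 0.21 to 0.40, limma adjusted p = 0.437). Gsk3b, a kinase that acts on Dpysl2, measured 1.9, 1.87 and 1.84 in the wild-type and 2.19, 2.01 and 2.01 in the heterozygous D2-like nuclei (0.14 ± 0.07, limma adjusted p = 0.592). Neither overlapped between genotypes in those nuclei.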

How the data were processed

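Expression was measured in single nuclei of 6 striatal libraries. Per the submitters' processing notes Cell Ranger and Seurat 4.1 were used with the mm10/GRCm38 build; filters and normalization are not given in the sources used here. The deposited table was treated as a score, a molecule value corrected for depth and then rounded: totals of the nuclei ran from 4523 to 10638 (coefficient of variation 10.7%). The original depth is therefore unknown, no counting interval was computed and no count test was run.

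Clusters came from 2000 variable genes without the family and pathway genes, 30 principal components, 15 neighbours and Leiden clustering at resolution 1, which gave 61 clusters. Scrublet called 0.672% to 1.38% of nuclei per library. Nuclei with a doublet score over 0.25, and clusters with over 40% of them, were left out (854 nuclei, 1.75%). A cluster of at least 20 nuclei was named from marker lists (151 entries, 150 in the table) when at least 3 markers were over 2-fold at a mean above 0.1 and either 80% of the list was or 1 marker stood in its top 10 genes. D1 and D2 spiny neurons needed 50% of their markers and 2 pan-MSN markers. These limits were set after the clusters were seen.

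Per library and population the mean value of the nuclei, as log2(mean + 0.01), entered limma 3.58.1 (R 4.3.3; trended, 3 against 3 libraries), over genes with a mean of at least 0.02 and a sum averaging 30 per library. Changes of low genes are understated on this scale. Adjusted p values are Benjamini-Hochberg within a population; a population was tested where each library gave 20 or more nuclei. The difference between spiny neuron types used 1 model with the library as a block. The fit was tested on simulated data. Members, lists and tests were chosen with earlier results of these data known. Named by rule were each gene's highest class (mean of at least 0.3), the members of smallest p in each population where none was called (3 in all, D1 and D2 nuclei, 1 elsewhere, 2 for the difference between types), and the 2 pathway genes of smallest p per spiny neuron type. Alternatives were other pseudocounts, filters and scaling, array weights, a replicate block, doublets kept and clustering with the family genes. Others were nuclei matched on genes per nucleus, a fixed class or cluster mix, nuclei of 2000 or more genes for the levels, and leaving out each library. The matching drew equal numbers per library within each cluster and bin of 250 genes, 3525 nuclei per library. It therefore also fixed the cluster mix. The fixed mix gave each class or cluster its share of the pooled nuclei in every library, without those of too few nuclei in any library.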

Additional observations from a re-analysis of the deposited data

How the results depend on the processing

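Of 422 recomputed counts of genes called, 418 were as reported. Leaving out 1 library gave 0 to 1 members called in cluster 27 (Nrp2, without wild-type replicate 1) and 0 to 1 for the difference between D1-like and D2-like nuclei (Sema6d, without wild-type replicate 1 or heterozygous replicate 3). Array weights gave 1 pathway gene called in D1-like nuclei (Dpysl2). Celsr3 in D1-like nuclei was called with array weights (-0.76, limma adjusted p = 0.0130) and without wild-type replicate 1; its leave-one-out changes ran from -0.82 to -0.65 (limma adjusted p from 0.0265 to 0.479). Plxnc1 in Pvalb/Pthlh interneuron-like nuclei turned to 0.014 without wild-type replicate 3 and 0.028 without heterozygous replicate 3, in a leave-one-out range of -0.425 to 0.028. The causes were not tested. Of 534 recomputed changes of named genes, 528 kept their direction and their side of the threshold. Levels have no threshold. The D1-like against D2-like differences in level of Plxna2, Plxnd1, Sema3e and Sema6a kept their direction throughout. Of the 19 members with a highest class mean of at least 0.3, 17 to 19 kept that class under the alternatives. The class of highest mean changed for Plxna2 with nuclei matched on genes per nucleus or limited to 2000 or more genes (neuroblast-like), for Nrp2 and Sema3a with the family genes used for clustering (other GABAergic and Pvalb/Pthlh interneuron-like), and for Plxna4 without wild-type replicate 1 or in nuclei of 2000 or more genes (cluster 23). The replicate numbers were not taken to pair the samples, since not every same-numbered pair of libraries deviated together with a correlation over 0.1: it was -0.04, 0.15 and -0.07 in all nuclei, 0.27, 0.02 and 0.19 in D1-like and 0.26, 0.05 and 0.17 in D2-like nuclei. Pairs with different numbers ran from -0.15 to 0.18 in all, -0.28 to 0.21 in D1-like and -0.25 to 0.18 in D2-like nuclei. Pairing is thus not excluded for the spiny neurons. With the replicate block 0 members were called in every population (smallest limma adjusted p 0.0944, in cluster 27). The fixed cluster mix and the minimum of 2000 genes were added after the data were seen. Some named genes had no value under a setting that left them below the filter or their class with too few nuclei. Without heterozygous replicate 2 Nrp2 in cluster 27 fell below the filter. A difference that misses the threshold with 3 libraries per genotype is not shown to be absent.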

Other observations

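In microglia-like nuclei few genes of the family had a mean above 0.3. Sema4d averaged 0.7 ± 0.0636 (SD, n = 6), Nrp1 0.52 ± 0.276 and Plxnb2 0.353 ± 0.0556. Nrp1 varied most between the libraries of this class among these, from 0.102 to 0.912. Sema6d, at 1.25 ± 0.0404, was exactly 1 in 82.7% of these nuclei, and Plxna4 averaged 3.21 ± 0.216. In those of 2000 or more genes Plxna4 averaged 3.56 ± 0.401 and the spiny neuron gene Pde10a 3.11, so these values do not by themselves show expression. In neuroblast-like nuclei the ligand Sema5a averaged 0.76 ± 0.18 beside the plexins named above. In astrocyte-like nuclei Sema6d averaged 5.48 ± 0.608, the third highest mean of that gene after OPC-like and eccentric MSN-like nuclei.

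Besides Plxnc1, opposite signs without overlap between populations occurred for Sema4b and Plxna2. The share of all genes that did so was not counted, so nothing about the family follows from this. Sema4b had higher values in heterozygous astrocyte-like and lower values in heterozygous microglia-like nuclei, a difference of 0.70 ± 0.23 (log2, SE; limma adjusted p = 0.965). Plxna2 had higher values in border-associated macrophage-like and lower values in cholinergic interneuron-like nuclei, a difference of 0.58 ± 0.26 (limma adjusted p = 0.944). Plxna2 was above 0 in 93.7% of the shallower macrophage-like nuclei (up to the class's median of genes) and 38.6% of the deeper ones, and the part of depth was not tested.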
